A study of Mus musculus with 11 samples.

Results

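The genes described here are 33 genes of the lysosome, taken by symbol from a list of lysosomal enzymes, lysosomal membrane proteins and the transcription factors Tfeb and Tfe3. Each symbol was matched to 1 Ensembl gene of the deposited files. The list holds 9 cathepsins, 5 membrane proteins, 11 glycosidases and sulfatases, 6 lipid-handling and other soluble proteins, and the 2 transcription factors. All 33 were among the 15767 genes that passed the expression filter, out of 38393 genes in the files. The rule that names them uses no measured value, although the list was chosen with earlier results of these data known.

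RNA was sequenced from the eyes of C57BL/6 mice that lack miR-211 and of wild-type littermates. The 5 WT libraries came from wild-type animals and the 6 KO libraries from animals labelled miR-211-KO, in which a germline deletion removes the miRNA precursor from an intron of its host gene Trpm1 in every cell of the body. Both groups were 1 to 2 months old, received no treatment, and gave whole eyes from which the lens and cornea had been taken out, leaving the retina, RPE, choroid, sclera and ciliary body. By the study's methods the KO animals were males and the WT animals of both sexes. The labels do not say which WT library came from which sex. Genotype and sex were not separated here, which bears most on the X-linked members Lamp2, Gla, Ids and Tfe3. The study compared WT males and WT females separately with KO males and reports the same gene ontology enrichments.

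Lysosomes are acidic organelles that break down proteins, lipids and glycans delivered by endocytosis, phagocytosis and autophagy. In the eye the RPE, the pigmented epithelium behind the retina, relies on them to digest the outer segment tips that photoreceptors shed. Many lysosomal genes carry an E-box in their promoter, the CLEAR element, to which Tfeb and its relative Tfe3 bind when they enter the nucleus. A miRNA lowers the output of transcripts whose 3′ UTR pairs with its seed.

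In whole-eye RNA, fewer cells of a type and less RNA per cell cannot be told apart. The libraries held 20282241 to 36317673 assigned read pairs, and replicates were separate animals. Mir211 itself had no count in any library of either genotype, so these counts do not check the deletion. The host gene Trpm1 ran from 331 to 496 CPM in WT and from 413 to 465 CPM in KO (log2 fold change 0.01 ± 0.15, SE). Crystallins of the lens, a tissue that had been removed, reached a sum of 151604 CPM in WT replicate 4, of 30321 CPM in KO replicate 3 and of 122 to 4102 CPM in the other 9 libraries. Markers of the labelled tissues were present in every library, with a summed 29144 to 45224 CPM for rods, 1873 to 2427 CPM for the RPE, 1265 to 2004 CPM for melanocytes and 4772 to 7208 CPM for Müller glia, while adipocyte markers (12.4 to 554 CPM) and blood markers (145 to 1940 CPM) varied more. Column names of a supplementary table of the study divide the libraries into a series named by mouse number (WT replicates 1 and 2, KO replicates 1 to 3) and a series named by age (the remaining 6). The libraries were matched to these columns by their counts.

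The promoters of the members were searched for the E-box that Tfeb and Tfe3 bind. RefSeq promoter windows on GRCm38.p6, from 250 bases before to 50 bases after the start of a gene, were found for 28 of the 33 members, in 33 windows. None was matched for Ctsh, Npc1, Asah1, Galns and Ctsb. The E-box CACGTG, which reads the same on both strands, occurred in 11 of the 33 windows (33.3%), against 7.15% of all 32851 promoter windows and 9.41% of the windows of tested genes. The longer TCACGTGA, which contains the E-box, occurred in the windows of Ctsa, Ctsd, Mcoln1 and Gla (12.1%), against 0.974% of all windows and 1.63% of those of tested genes. Lamp1 held 4 E-boxes within 61 bases before its start. The stretches shown run from 120 bases before to 20 bases after the start and were chosen for their E-boxes, which are in capitals. Ctsa has 2 windows, and the stretch shown is from the one with its start further downstream, as the window at the first start holds no E-box.
Lamp1 promoter, chr8:13159041-13159180, + strand: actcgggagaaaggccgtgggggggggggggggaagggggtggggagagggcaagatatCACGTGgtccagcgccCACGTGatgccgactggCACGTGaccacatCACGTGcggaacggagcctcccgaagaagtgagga
Mcoln1 promoter, chr8:3500399-3500538, + strand: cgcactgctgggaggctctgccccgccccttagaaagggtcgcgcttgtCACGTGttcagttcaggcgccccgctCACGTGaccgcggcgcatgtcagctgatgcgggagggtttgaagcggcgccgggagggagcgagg
Ctsd promoter, chr7:142387808-142387947, - strand: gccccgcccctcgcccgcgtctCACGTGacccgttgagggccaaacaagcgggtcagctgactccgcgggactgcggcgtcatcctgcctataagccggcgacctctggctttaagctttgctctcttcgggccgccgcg
Ctsa promoter, chr2:164833653-164833792, + strand: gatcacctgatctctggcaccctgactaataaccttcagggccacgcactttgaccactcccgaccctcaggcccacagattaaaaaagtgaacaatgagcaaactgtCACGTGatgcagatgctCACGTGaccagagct

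The remaining members with an E-box in the window were Glb1, Naglu, Gaa, Sgsh, Ctsl, Ctsf and Gla. Neither Tfeb, Tfe3 nor Ctsz held one. A match in this window is a description of the letters and does not show that a factor binds there.

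The deleted miRNA and its relative miR-204 share their seed and differ at 1 base (U17A, from miR-211 to miR-204, counted from the 5′ end). Both mature sequences, from RefSeq on GRCm38.p6, are shown because they define the sites searched for. Capitals mark the seed, bases 2 to 8.
mmu-miR-211-5p, chr7:64205831-64205852, + strand: uUCCCUUUgucauccuuugccu
mmu-miR-204-5p, chr19:22750610-22750631, + strand: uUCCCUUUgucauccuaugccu

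The match to this seed, AAAGGGA on the transcript strand, was present in the longest annotated 3′ UTR of 6 of the 33 members (18.2%), close to the 16.6% of 14505 tested genes with a UTR. The median UTR was 1184 bases long among the members and 1210 among all these genes. In Ctsb, Tpp1 and Lamp1 the match was followed by a further A, giving 8 bases. These are 3 of the 33 members, against 7.14% of the 14505 genes. The 6 sites are shown in their transcripts, 30 bases each on GRCm38 with the Gencode M21 annotation, with the seed match in capitals.
Ctsb site, chr14:63143442-63143471, + strand: aagtacagttcAAAGGGAacagggagcctc
Tpp1 site, chr7:105746569-105746598, - strand: tccctgtactaAAAGGGAaggctcagtttc
Lamp1 site, chr8:13174881-13174910, + strand: ttaagccttacAAAGGGAatctctggtcca
Tfe3 site, chrX:7774759-7774788, + strand: tttgggagatgAAAGGGAttagtgtggacc
Mcoln1 site, chr8:3515176-3515205, + strand: ggacacaggggAAAGGGAgggcatgtaggg
Ctsl site, chr13:64360435-64360464, - strand: caaaaggaagaAAAGGGAgactaaagagga

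Levels were compared between genes as FPKM, which divides by transcript length. The highest was Psap, the precursor of the saposins that activate sphingolipid breakdown, with a mean of 415 FPKM over 11 libraries. Ctsd, the main lysosomal aspartic protease, followed with 299 FPKM and Lamp1, a heavily glycosylated protein of the lysosomal membrane, with 124 FPKM. At the lower end stood Galns, a sulfatase acting on keratan sulfate, with 3.43 FPKM, Sgsh, a sulfatase of heparan sulfate breakdown, with 4.06 FPKM, and Gla, the α-galactosidase, with 5.24 FPKM. Glycosidases and sulfatases had a median of 9.49 FPKM and cathepsins a median of 60.2 FPKM. Of the 32 neighbouring pairs in the order of mean FPKM, 30 had overlapping ranges over the libraries. The neighbours with separate ranges were Ctsd and Lamp1, and Ctsb and Ctsf, a pair of cysteine proteases at 114 and 73.3 FPKM. Ctsl, which ranked above Ctsb, still overlapped Ctsf, with a lowest value of 86.94 FPKM against a highest of 87.13 FPKM. Tfe3 stood at 14.8 FPKM and Tfeb at 7.62 FPKM, in the lower part of the order, although their ranges of 12.1 to 16.4 FPKM and 6.17 to 9.21 FPKM did not overlap.

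**Figure D1:**
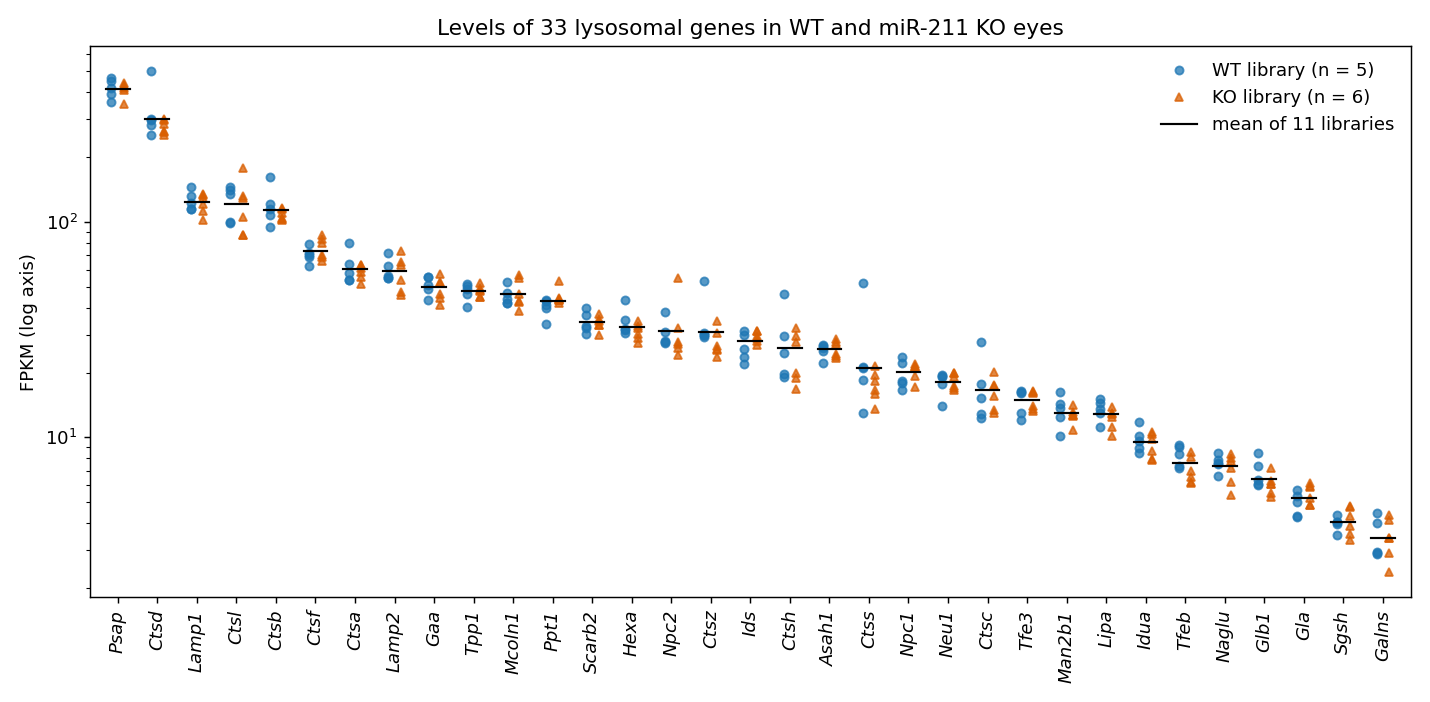
FPKM (log axis) of the 33 lysosomal genes in each WT library (circles, n = 5) and each KO library (triangles, n = 6), ordered by the mean over 11 libraries (black lines). Levels run from 415 FPKM for Psap to 3.43 FPKM for Galns, and WT and KO symbols overlap for every gene.

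The main comparison asks which of these genes differ in the absence of miR-211. None of the 33 passed an adjusted p of 0.1 (edgeR likelihood-ratio test, Benjamini-Hochberg over 15767 genes), where 1 of all tested genes did (0.00634%). At an unadjusted p under 0.05, 1 member was lower in KO, against 1.77% of all genes tested, and 0 were higher, against 0.323%. The edgeR quasi-likelihood test gave 0 lower and 0 higher members at the same threshold. The log2 fold changes of the members ran from -0.55 to 0.12 with a median of -0.09, beside a median of 0.0027 over all genes. The sign was negative for 28 of the 33, against 48.9% of all genes. Both shares moved with the scaling: they were 22 of 33 members against 34.4% of all genes without TMM factors, and 21 of 33 against 34.0% with limma on log2 FPKM. The median of the members stayed below that of all genes, at -0.05 against 0.05 without TMM factors and -0.04 against 0.05 with limma. In no member did every KO library lie below every WT library (0.0761% of all genes) or above (0.108%). The SE of the fold changes had a median of 0.12 (range 0.090 to 0.30), and for 25 members the 95% interval lay within 0.5 log2 units on either side of 0.

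**Figure D2:**
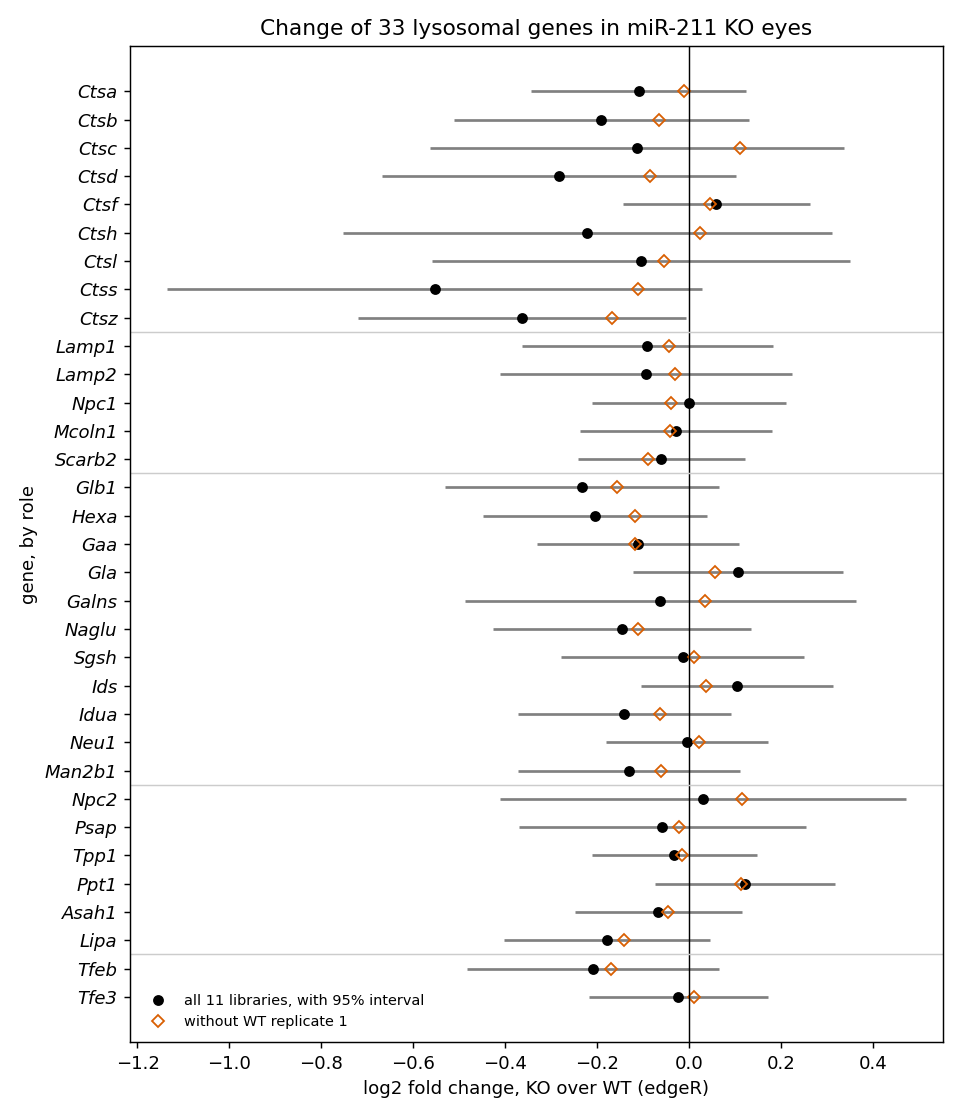
Log2 fold change of KO over WT for the 33 genes by role (black circles, 5 WT and 6 KO libraries), with 95% intervals (grey lines), and the same without WT replicate 1 (open diamonds). The interval of Ctsz alone ends below 0, and the diamonds of most genes with negative values lie closer to 0.

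Part of the negative signs goes along with 1 library. WT replicate 1 was the highest of the 11 libraries for 15 of the 33 members (45.5%) and for 21.4% of all genes. KO replicate 2 was the lowest for 13 members (10.7% of all genes) and KO replicate 5 for 10 (14.4%). WT replicate 1 was the lowest for 2 members (22.1% of all genes). The summed CPM of the members was 5748 in WT replicate 1 and 4161 to 4854 in the other 10. Without it, 22 of 33 members had a negative sign, against 48.1% of all genes, the median log2 fold change was -0.04, and 0 members were lower at an unadjusted p under 0.05, against 0.841%. The summed CPM of 16 microglia and macrophage markers was 572 in WT replicate 1, 206 to 274 in the other WT libraries and 156 to 277 in the KO libraries. None of the 16 markers was at 0, 15 had a negative log2 fold change, and 4 (Ptprc, C1qb, C1qc and Adgre1) were lower in KO at an unadjusted p under 0.05, beside 48.9% and 1.77% of all genes. The markers had a median of -0.50 on the log2 scale, which moved to -0.10 without WT replicate 1, where 0 of the 16 were lower at that threshold, while 11 were with the series as a covariate. WT replicate 1 was also the highest library in the sums for Müller glia (7208 CPM, against 4772 to 5844 CPM in the other 10), adipocytes (554 CPM, against 12.4 to 316 CPM) and skeletal muscle (8989 CPM, against 902 to 8747 CPM). It was the lowest in those for rods (29144 CPM, against 33586 to 45224 CPM) and melanocytes (1265 CPM, against 1372 to 2004 CPM). The part of these cells in the members' values was not tested.

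Among the cathepsins, the proteases of the lysosome, 8 of 9 had a negative log2 fold change, with a median of -0.19 that became -0.05 without WT replicate 1. Ctsz, a carboxypeptidase of this family (chr2:174427493-174439039, - strand), was the member with an unadjusted p under 0.05. It had 73.6, 41.4, 39.7, 48.9 and 40.9 CPM in WT replicates 1 to 5, and 32.6, 36 and 48.4 CPM as the lowest, median and highest of the KO libraries. The groups overlapped, since KO replicate 3 and KO replicate 6 lay above 3 of the WT libraries, and WT replicate 1 stood far above all others. The log2 fold change was -0.36 ± 0.18 (SE, 95% interval -0.72 to -0.01, edgeR likelihood-ratio test, adjusted p = 1.00), and -0.17 without WT replicate 1. It was -0.54 within the mouse-number series and -0.23 within the age series.

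Ctss, a cysteine protease abundant in antigen-presenting cells and macrophages, had the lowest fold change. Its WT libraries held 67.9, 24.4, 26.4, 19.6 and 26.8 CPM and its KO libraries 16.8 at the lowest, 22.2 at the median and 28.0 at the highest. The KO range contained the WT libraries other than replicate 1. The log2 fold change was -0.55 ± 0.30 (95% interval -1.14 to 0.03, edgeR likelihood-ratio test, adjusted p = 1.00) and -0.11 without that library. Over all 11 libraries Ctss varied most of the members, with a coefficient of variation of 50.8%. That rested on WT replicate 1: over the other 10 it was 15.2%, and Npc2 (30.2%), Ctsl (27.1%), Ctsh (26.1%), Galns (22.1%), Ctsc (20.4%) and Lamp2 (16.1%) varied more.

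Ctsd followed the same arrangement at a much higher count. It had 1041, 623, 559.7, 608 and 611 CPM in the WT libraries, and 499, 572 and 623 CPM at the lowest, median and highest of the KO libraries. Its log2 fold change of -0.28 ± 0.20 (95% interval -0.67 to 0.10, edgeR likelihood-ratio test, adjusted p = 1.00) became -0.09 without WT replicate 1. WT replicate 1 was the highest library for 7 of the 9 cathepsins, the exceptions being Ctsf and Ctsl. Ctsa, a carboxypeptidase that also protects Neu1 and Glb1, had a log2 fold change of -0.11, Ctsb, an abundant cysteine protease, -0.19, and Ctsh, an aminopeptidase, -0.22. Ctsc, which activates serine proteases of immune cells, was at -0.11, Ctsl, a broad endopeptidase, at -0.11, and Ctsf at 0.06. Without WT replicate 1, the values of Ctsc and Ctsh turned to 0.11 and 0.02.

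**Figure D3:**
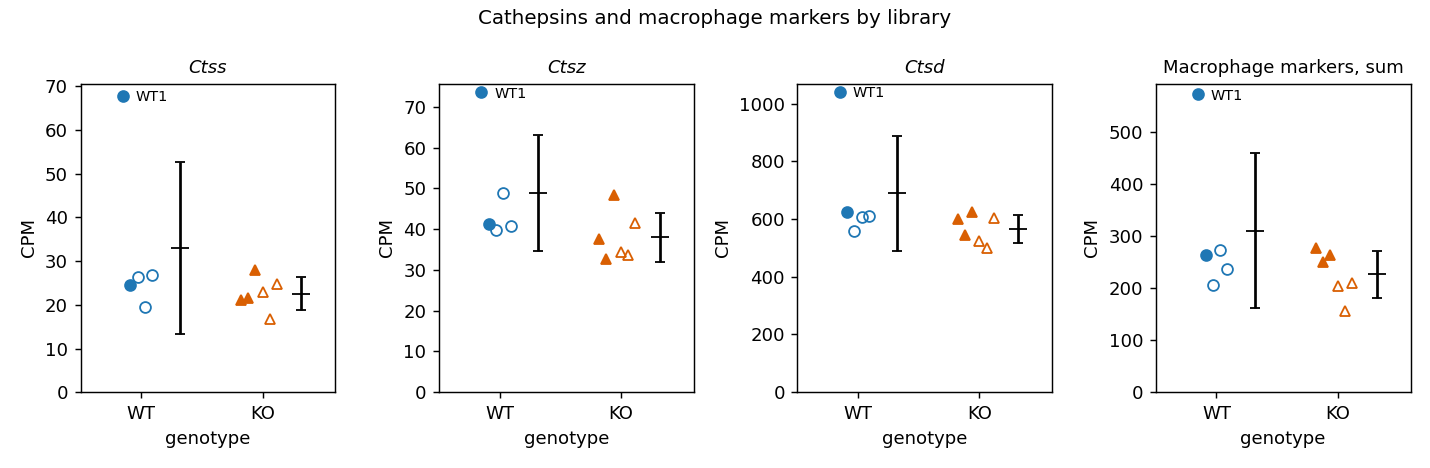
CPM of Ctss, Ctsz and Ctsd and the summed CPM of 16 microglia and macrophage markers in each library, for WT (circles, n = 5) and KO (triangles, n = 6). Filled symbols are the mouse-number series, open symbols the age series, and bars show mean ± SD. WT replicate 1 (WT1) lies above the other 10 libraries in all 4 panels.

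The 5 membrane proteins carry out transport and protect the organelle from its own enzymes. All 5 had negative values between -0.09 and -0.0015 (median -0.06), of which Npc1 and Mcoln1 turned positive without TMM factors. Lamp1 had 319, 294, 241, 294 and 265 CPM in WT, and 214, 271 and 302 CPM as the lowest, median and highest in KO. The genotypes overlapped, with 2 KO libraries below all WT libraries and WT replicate 1 above all KO libraries, and the log2 fold change was -0.09 ± 0.14 (95% interval -0.36 to 0.18). Lamp2, its relative with a role in chaperone-mediated autophagy, was at -0.09. Npc1, which exports cholesterol from the lysosome, was at -0.0015. Scarb2, the receptor that brings glucocerebrosidase to the lysosome, was at -0.06, and Mcoln1, the lysosomal cation channel, at -0.03 ± 0.11. Mcoln1 combines 2 E-boxes in its promoter with a seed match in its 3′ UTR, and Lamp1 and Ctsl also hold both features. In Ctsl the match lies at base 3645 of a 3′ UTR of 4761 bases, the longest annotated. Whether the Ctsl transcripts of these eyes reach that far was not examined.

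Of the glycosidases and sulfatases, 9 of 11 had negative values (median -0.11), and Sgsh and Neu1 among them turned positive without TMM factors. Without WT replicate 1, 6 of 11 were negative, with a median of -0.06. WT replicate 1 was the highest library for 3 of the 11, and WT replicate 4 for 5 (Glb1, Gaa, Galns, Naglu and Sgsh). WT replicate 4 had the highest crystallin sum and a TMM factor of 0.87, and the part of these in its values was not tested. Galns had 11.2, 7.38, 7.04, 11.7 and 7.30 CPM in WT and 5.99, 8.37 and 11.1 CPM as the lowest, median and highest in KO. Sgsh had 18.8, 15.5, 16.4, 20.2 and 17.2 CPM in WT and 14.3, 17.5 and 20.1 CPM in KO. Gla had 13.5, 15.8, 17.1, 15.5 and 16.5 CPM in WT and 15.1, 17.2 and 18.3 CPM in KO. The genotypes overlapped for all 3, and WT replicate 1 was the lowest library for Gla. Their log2 fold changes were -0.06 ± 0.22 for Galns, -0.02 ± 0.14 for Sgsh and 0.11 ± 0.12 for Gla, or 0.055 without WT replicate 1.

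Ids, a sulfatase that starts the breakdown of heparan and dermatan sulfate, had 104, 127, 138, 131 and 145 CPM in WT. Its KO libraries held 129.7, 140.1 and 143 CPM at the lowest, median and highest. The KO libraries fell inside the WT range, whose lower end was set by WT replicate 1, and the log2 fold change was 0.10 ± 0.11, or 0.035 without that library. The further enzymes of this class were Glb1, the β-galactosidase, at -0.23, Hexa, a subunit of β-hexosaminidase, at -0.20, Gaa, the acid α-glucosidase, at -0.11, and Naglu, of heparan sulfate breakdown, at -0.15. Idua, the α-iduronidase, was at -0.14, Man2b1, the α-mannosidase, at -0.13, and Neu1, the sialidase, at -0.0055. The interval of Hexa was the closest of this class to excluding 0, at -0.45 to 0.04.

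Among the lipid-handling and other soluble proteins, 4 of 6 were negative (median -0.05), of which Tpp1 turned positive without TMM factors, and the median was -0.02 without WT replicate 1. Psap had 1208, 1038, 1037, 1079 and 1155 CPM in WT, and 913, 1076 and 1161 CPM as the lowest, median and highest in KO, with a log2 fold change of -0.06 ± 0.16. Tpp1, a tripeptidyl peptidase, had 174, 162, 161, 160.2 and 174 CPM in WT and 154, 161 and 171 CPM in KO. Its values stayed closest together of all members, with a coefficient of variation of 4.28%, and its log2 fold change was -0.03 ± 0.09 (95% interval -0.21 to 0.15). Ppt1, which removes palmitate from proteins, had the largest positive value. It had 92.3, 95.9, 95.1, 90.4 and 98.6 CPM in WT and 93.3, 99.3 and 125 CPM as the lowest, median and highest in KO. Only KO replicate 1 stood far above the WT libraries, and the log2 fold change was 0.12 ± 0.10 (95% interval -0.08 to 0.32), or 0.054 without KO replicate 1. Npc2, which hands cholesterol to Npc1, was also highest in KO replicate 1, with 179 CPM against 74.0 to 104 CPM in the other KO libraries. Its log2 fold change of 0.03 became -0.21 without that library. Asah1, the acid ceramidase, was at -0.07 and Lipa, the acid lipase, at -0.18.

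Tfeb (chr17:47737030-47792419, + strand) had 18.2, 18.4, 14.9, 17.5 and 13.2 CPM in WT and 12.6, 13.7 and 17.3 CPM as the lowest, median and highest in KO. The higher values lay mostly in WT, yet WT replicate 5 was among the lowest libraries and KO replicate 1 among the highest. The log2 fold change was -0.21 ± 0.14 (95% interval -0.48 to 0.06, edgeR likelihood-ratio test, adjusted p = 1.00), and -0.17 without WT replicate 1. Leaving out each library in turn gave -0.28 to -0.17, and Tfeb was below an unadjusted p of 0.05 without WT replicate 5 (-0.28) or without KO replicate 1 (-0.27). Tfe3 (chrX:7762560-7775202, + strand) had 53.4, 43.1, 50.8, 46.1 and 51.0 CPM in WT and 43.8, 48.5 and 52.0 CPM in KO. The 2 genotypes covered nearly the same range, and the log2 fold change was -0.02 ± 0.10, or 0.02 without TMM factors. Activity of these factors depends on their place in the cell, which transcript levels do not show.

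Fold changes of members with and without the sequence features were set side by side, with no test. The 11 members with an E-box had a median log2 fold change of -0.11, with 9 negative, and the 17 members whose window held none had a median of -0.09, with 14 negative. The 6 members with a seed match lay between -0.19 and -0.02 (median -0.06) with 0 positive, although Mcoln1, Tpp1 and Tfe3 among them turned positive without TMM factors. The 27 without a match had a median of -0.11, with 5 positive. Over all genes the medians were 0.02 with a match and -0.0031 without one.

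More members, and more of all genes, passed the same threshold between the library series than between the genotypes. In the fit with genotype and series, 10 of 33 members passed an adjusted p of 0.1 for the series (edgeR likelihood-ratio test). This share was somewhat below the 36.3% of all genes. Higher in the mouse-number series were Ctsh, Ctsc, Ctsl, Lamp1, Lamp2, Npc2 and Asah1, and lower were Gaa, Gla and Mcoln1. Ctsh had 44.1 to 69.3 CPM in the mouse-number series and 24.8 to 42.6 CPM in the age series (log2 difference 0.78, edgeR likelihood-ratio test, adjusted p = 8.3e-06). Lamp2 had 185 to 209.8 CPM against 127 to 183 CPM (0.39, adjusted p = 0.00318). Mcoln1 had 50.3 to 57.7 CPM against 58.5 to 68.4 CPM (-0.20, adjusted p = 0.0485). The ranges of these 3 genes did not overlap between the series. The share of all genes without overlap between the series was not computed, so this is no result about the members. The summed CPM of skeletal muscle markers was 2008 to 8989 in the mouse-number series and 902 to 5083 in the age series, and that of cornea and conjunctiva markers 4852 to 8003 and 1133 to 6187. Their part in the series difference was not tested.

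With the series in the fit, 4 members were lower in KO at an unadjusted p under 0.05, against 5.23% of all genes, and 0 were higher, against 1.34%. They were Ctsz (-0.38), Ctss (-0.54), Hexa (-0.22) and Ctsh (-0.30), and 0 members passed the adjusted threshold. WT replicate 1 belongs to the mouse-number series, where Ctss had a log2 fold change of -0.97, against -0.18 in the age series. The difference between these values was not tested.

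**Figure D4:**
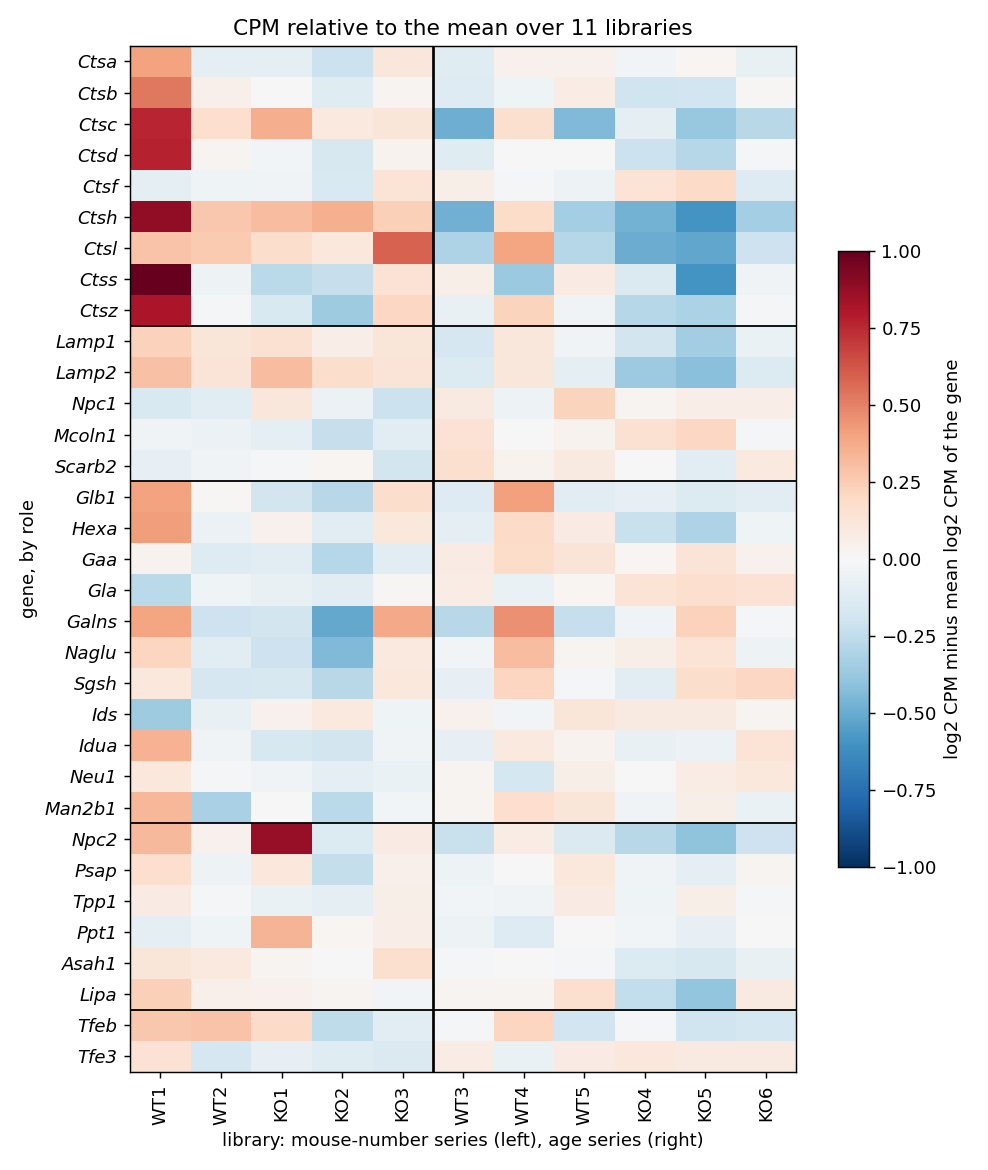
Log2 CPM of each of the 33 genes in each library minus the mean over 11 libraries (colour), with the mouse-number series left of the vertical line and the age series right of it; horizontal lines divide the roles. WT replicate 1 has the strongest positive colours among the cathepsins, and Ctsh, Lamp2 and Mcoln1 change colour between the series.

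The rest of the lysosomal pathway was given by 7 further lists with 128 genes, of which 126 were tested. At an unadjusted p under 0.05, 2 were lower in KO, 0 were higher, and 0 passed the adjusted threshold, counts to be read beside the 1.77% and 0.323% of all genes. The 27 other hydrolases and cofactors had a median log2 fold change of -0.07 and the 22 other membrane proteins of -0.03. The 18 subunits of the V-ATPase, the pump that acidifies the lysosome, had a median of 0.0019, the 13 genes of enzyme sorting -0.01, and the 21 genes of the MiT family and of mTORC1, which keeps Tfeb out of the nucleus, 0.01. The 20 autophagy genes had a median of -0.0058. The 5 cathepsin inhibitors had a median of -0.19, which was -0.05 without WT replicate 1, with 3 of 5 negative.

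The 2 genes that were lower were Laptm5, a lysosomal membrane protein of immune cells, and Serpina3n, a serpin induced in reactive glia. Laptm5 had 15.3 ± 6.17 CPM in WT and 10.6 ± 1.2 CPM in KO (SD, log2 fold change -0.53 ± 0.24). Serpina3n had 432 CPM in WT replicate 1 and 28.7 to 73.4 CPM in the other 10 libraries. Without WT replicate 1, the log2 fold changes were -0.27 for Laptm5 and -0.14 for Serpina3n, and 0 of the 126 genes were lower at an unadjusted p under 0.05.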

How the data were processed

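Whole-eye RNA of 5 WT and 6 KO animals was prepared with the TruSeq RNA kit, which does not keep strand, and sequenced as paired reads of 100 bases. The authors quantified genes of Gencode M4 (GRCm38) with RSEM 1.2.19 and deposited an expected count and an FPKM value per gene and library. The expected counts were rounded, scaled by TMM (edgeR 4.0.16, R 4.3.3) and tested with the likelihood-ratio test of edgeR on genotype alone, for genes that reached 1 CPM in 5 or more of 11 libraries, with Benjamini-Hochberg adjustment and a threshold of 0.1. CPM was computed on the TMM-scaled library size. Intervals are 95% from the SE of the fit. Gene symbols were found for 36639 of 38393 identifiers (95.4%) and matched through the Gencode M21 tables. The script was tested on simulated data.

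The members, the pathway lists and the marker lists were chosen with earlier results of these data known. All 33 members are named. Values in each WT library, and the lowest, median and highest KO library, are given for members with an unadjusted p under 0.05, Tfeb and Tfe3, and, 3 each, the highest and lowest in level and the largest and smallest in fold change, and for the largest and smallest coefficient of variation. Pathway genes are named at an unadjusted p under 0.05. The gene lists cover 7 pathway lists and 10 marker lists of cell types. The library series was taken from column names of a supplementary table, matched to the libraries by proportional counts over 63 genes. Without strand, reads shared with an overlapping gene cannot be told apart: 10 members share exon bases with another gene, 9 of them with one above 1 CPM, most of all Sgsh with Card14 (21.6% of its exon bases). Alternatives were the quasi-likelihood test, DESeq2 1.42.0, other scaling and filters, unrounded counts, limma 3.58.1 on log2(FPKM + 0.1), the replicate number as a block, the series as a covariate or alone, and leaving out each library.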

Additional observations from a re-analysis of the deposited data

Results flagged for a closer look

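For 7 of the 66 groups tested (33 genes in 2 genotypes), 1 library lay far from the rest of its group. Chance marks about 1 in 20 such groups if they are independent, and the share flagged over all genes was not computed. Of the 7 flags, 5 were cathepsins in WT replicate 1, and flags within 1 library are not independent. Ctsd had 1041 CPM there, against 559.7 to 623 CPM in the other WT libraries. Ctss had 67.9 CPM, against 19.6 to 26.8 CPM, and Ctsz 73.6 CPM, against 39.7 to 48.9 CPM. Ctsb had 761 CPM, against 482 to 557 CPM, and Ctsa 152 CPM, against 105 to 118 CPM. The other 2 were in KO replicate 1, where Npc2 had 179 CPM, against 74.0 to 104 CPM, and Ppt1 125 CPM, against 93.3 to 103 CPM.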

How the results depend on the processing

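No setting run gave a member with an adjusted p under 0.1, and none gave a member higher at an unadjusted p under 0.05. The count of 1 member lower at an unadjusted p under 0.05 became 0 with the quasi-likelihood test, upper-quartile scaling, no TMM factors, limma on log2 FPKM and the age series alone, and 4 with the series as a covariate. Leaving out 1 library gave 0 to 3, with 0 without WT replicate 1 or KO replicates 2, 4, 5 or 6, 2 without WT replicate 5 or KO replicate 3, and 3 without WT replicate 2 or 3. The count stayed at 1 without WT replicate 4 or KO replicate 1, but the member was then Ctss or Tfeb and not Ctsz. Apart from the fit without WT replicate 1, these leave-one-out counts are given without the share of all genes. Of the 126 pathway genes tested, 2 were lower, against 1.77% of all genes. This count became 4 with the series as a covariate, against 5.23% of all genes. It became 0 without WT replicate 1, against 0.841%, in a check chosen after seeing the data. With the replicate number as a block these counts were 0 members and 1 pathway gene. The deviations of same-numbered libraries correlated from -0.33 to 0.63, with a mean of 0.22 against -0.04 for different numbers. Libraries of the same series had a mean of 0.32 and of different series -0.32. These values do not settle whether the numbers pair the samples. The sign of 20 members was the same in all settings, Tfeb, Ctsz, Ctss and Ctsd among them, and that of 13 was not. With upper-quartile scaling, the log2 fold change changed sign to 0.0055 for Neu1 and 0.0087 for Npc1. With no TMM factors, the log2 fold change changed sign to 0.039 for Sgsh, 0.038 for Neu1, 0.043 for Npc1, 0.019 for Mcoln1, 0.013 for Tpp1 and 0.022 for Tfe3. With a filter of 1 count in any library, the log2 fold change changed sign to 0.0034 for Npc1. With limma on log2 FPKM, the log2 fold change changed sign to 0.032 for Sgsh, 0.038 for Neu1, 0.053 for Npc1, 0.040 for Mcoln1, 0.019 for Tpp1, 0.030 for Asah1 and 0.021 for Tfe3. With the series as a covariate, the log2 fold change changed sign to 0.017 for Npc1 and -0.048 for Npc2. With the mouse-number series alone, the log2 fold change changed sign to 0.030 for Ctsl, 0.083 for Npc1 and 0.0049 for Scarb2. With the age series alone, the log2 fold change changed sign to 0.049 for Galns, 0.063 for Sgsh, 0.092 for Neu1, -0.20 for Npc2, 0.056 for Mcoln1 and 0.068 for Tfe3. Leaving out 1 library gave ranges that crossed 0, -0.23 to 0.11 for Ctsc, -0.35 to 0.023 for Ctsh, -0.15 to 0.063 for Galns, -0.060 to 0.047 for Sgsh, -0.037 to 0.021 for Neu1, -0.066 to 0.010 for Tfe3, -0.039 to 0.058 for Npc1, -0.21 to 0.11 for Npc2 and -0.077 to 0.012 for Mcoln1. Apart from leaving out libraries, which reduces the samples, the cause of these changes was not tested. With 5 and 6 libraries the 95% intervals of 8 members reach beyond 0.5 log2 units.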
